A study of Mus musculus with 2 samples.

Results

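Open chromatin in 3' UTRs and just past the ends of genes was examined in DNase-seq data from mouse limb. The regions are peaks of 150 bp whose centre lay more than 1 kb from every annotated transcription start site (TSS) of a protein-coding gene and outside any coding sequence, and either in a 3' UTR or within 1 kb downstream of the 3' end of a protein-coding gene. They are called gene-end peaks here. They number 4699 of 208674 peaks in replicate 1 and 4150 of 196593 in replicate 2. Of the 127632 peaks of replicate 1 that were shared with replicate 2, 2727 are gene-end peaks, 1565 of them in a 3' UTR and 1162 downstream. Sharing required that 1 peak of replicate 2 cover 50% or more of the bases. The samples form 1 group, limbs of healthy B6NCrl embryos at 14.5 days with males and females pooled, and the series holds 2 libraries called biological replicates. The labels give both libraries 1 donor identifier and do not say whether separate pools of embryos were used. A whole limb mixes many cell types, so a stronger peak cannot be told apart from a peak present in more of the cells.

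DNase I cuts DNA where nucleosomes are displaced, and in most tissues such sites mark promoters, enhancers and the binding sites of insulator proteins. The 3' UTR is transcribed but not translated. It carries the cleavage and polyadenylation signal, the microRNA sites and the RNA elements that set the fate of the mRNA, and transcription runs on past the annotated end before the polymerase is released. The same DNA can also hold binding sites for transcription factors, and enhancers of developmental genes are known in these positions. CTCF is a zinc-finger protein that anchors chromatin loops and can act as a boundary between neighbouring genes.

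The sequences below, except the last, show the CTCF motif in gene-end peaks, and were chosen for holding it. They are 4 shared peaks in 3' UTRs and 4 downstream with a high mean signal rank and a match to the CTCF core motif. Each sequence is printed 5′ to 3′ on the strand of the motif, with the match in capitals. Bases are from the RefSeq GRCm38.p6 assembly, the same sequence as the mm10 build of the peaks.
Slc4a3, 3' UTR, chr1:75559667-75559696, minus strand: caaaaaccaCCACCAGAGGGCtacacacgg
Skap2, 3' UTR, chr6:51858059-51858088, minus strand: cctaagtggCCAGCAGATGGCagcagcttg
Frmd8, 3' UTR, chr19:5850355-5850384, minus strand: cagctgtgaCCAGCAGGGGGCagctgagcc
Ror2, 3' UTR, chr13:53109743-53109772, plus strand: catcctccgCCAGCAGGGGGCtcacggagc
Csrp1, downstream, chr1:135753081-135753110, minus strand: cctgcatggCCAGCAGAGGGCagcctgtct
Acvrl1, downstream, chr15:101145555-101145584, minus strand: gcgcattggCCAGCAGAGGGCgacgtggct
Ckb, downstream, chr12:111668521-111668550, plus strand: tgagcctgaCCAGCAGGTGGCagcacaaga
Eef1b2, downstream, chr1:63181154-63181183, plus strand: tcatgaaggCCAGCAGAGGGCagtgttagg
Fhl3, downstream, chr4:124709030-124709059, plus strand, with a CAGCTG E-box: aaggcaaggaagCAGCTGcacgcgccggga

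The peak signal, the authors' own whole-number value, was 132 in replicate 1 and 107 in replicate 2 at Slc4a3, which encodes a chloride and bicarbonate exchanger. It was 119 and 109 at Skap2, an adaptor protein, in replicates 1 and 2. At Ror2, a receptor for the limb outgrowth signal Wnt5a, it was 117 and 96. Csrp1, a LIM-domain protein, had 126 and 105, and Acvrl1, a receptor of endothelial cells for BMP ligands, had 122 and 101. Every one of these 8 peaks with a CTCF match lies within the top decile of signal in both replicates, and they were chosen by signal rank.

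Signals are on a scale that the sources do not give, so they were compared only by rank within a list. Read depth is unknown. The signal of all peaks had a median of 42 in replicate 1 and 31 in replicate 2. Peaks on unplaced sequence and the mitochondrial genome, 291 in replicate 1 and 277 in replicate 2, were left out. With 1 group of 2 libraries no test over samples was possible, so each comparison is given in both replicates. Intervals are 95% Wilson intervals and cover the sampling of peaks or genes only, not variation between embryos.

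Gene ends were denser in open chromatin than the rest of the distal genome. The sequence that could hold a gene-end peak comes to 49.1 Mb, 1.80% of the genome, and gene-end peaks make up 2.25% (2.19 to 2.32%) of the peaks of replicate 1, 2.11% (2.05 to 2.18%) of those of replicate 2 and 2.14% (2.06 to 2.22%) of shared peaks. Gene-end peaks numbered 95.7 per Mb in replicate 1 and other distal peaks 62.0 per Mb. In replicate 2 the densities were 84.5 and 58.8 per Mb. The ratio was 1.54 in replicate 1 and 1.44 in replicate 2, a mean of 1.49 ± 0.0750 (SD, n = 2), and it was 1.49 for shared peaks. In both replicates gene ends were thus the denser class, by more than the replicates differed.

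Distance to a promoter accompanied this difference. Shared gene-end peaks lay a median of 6.46 kb from the nearest coding TSS, against 31.1 kb for other distal peaks. When only sequence within 20 kb of a coding TSS was counted, the density of shared peaks was 58.7 per Mb at gene ends and 50.9 per Mb in other distal sequence, a ratio of 1.15. The 43.2% GC of gene-end sequence was also above the 41.3% of other distal sequence. The part of promoter distance and GC content in the density was not tested further. By comparison, shared peaks reached 51.7 per Mb in coding sequence more than 1 kb from a TSS, and 292 per Mb within 1 kb of a TSS.

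The downstream kilobase was denser than the 3' UTR. It held 109 peaks per Mb in replicate 1 and 91.5 in replicate 2, and the 3' UTR held 87.6 and 80.3. The ratio of downstream to 3' UTR was 1.25 in replicate 1 and 1.14 in replicate 2, with a mean of 1.19 ± 0.0757 (SD, n = 2). It was 1.24 for shared peaks, at 63.2 and 50.9 per Mb. Downstream sequence was also richer in GC, at 44.2% and 42.6%. Its shared peaks lay nearer a coding TSS, at a median of 5.31 kb against 7.23 kb. The part of these in the ratio was not tested. By distance from the gene end, shared peaks numbered 55.5 per Mb at 1000 to 500 bp before it and 66.9 per Mb at 500 to 200 bp before it. In the last 200 bp before it they numbered 43.9 per Mb, and in the first 200 bp past it 60.3 per Mb. Farther past it the density was 70.4 per Mb at 200 to 500 bp and 67.7 per Mb at 500 to 1000 bp.

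**Figure D1:**
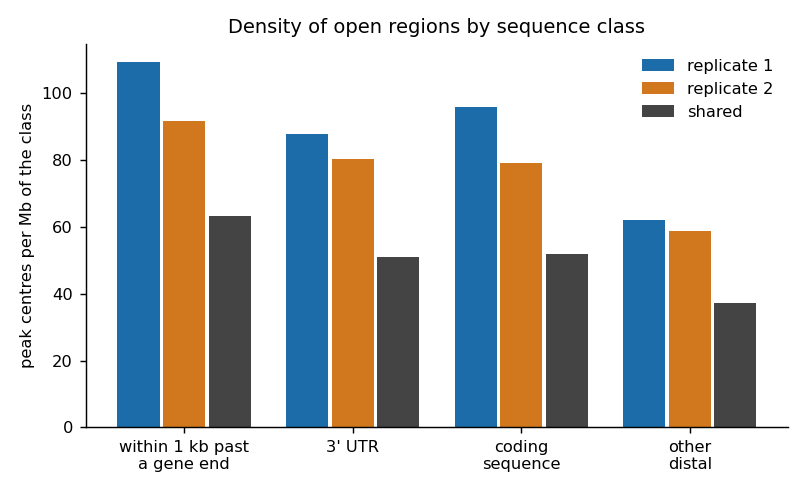
Peak centres per Mb (vertical axis) in the downstream kilobase, 3' UTR, coding sequence and other distal sequence, all more than 1 kb from a coding TSS, with a bar for replicate 1, replicate 2 and shared peaks. Downstream sequence is highest and other distal sequence lowest in each replicate, from 109 to 62.0 per Mb in replicate 1 and from 91.5 to 58.8 per Mb in replicate 2.

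The density dipped at the cleavage site itself. A centre was counted here for each gene whose 3' end it lay near, and only in sequence the rule could accept. In the last 100 bp of the gene, the density of shared peaks was 37.2 per Mb. It was 46.5 per Mb in the first 100 bp past the end. At 200 to 300 bp past it, the highest bin of the profile for shared peaks and each replicate, it was 83.7 per Mb. A density of 42.4 per Mb was also found 800 to 900 bp before the end. Both replicates had the dip, with 67.7 per Mb in replicate 1 and 57.2 in replicate 2 in the last 100 bp, and 131 and 118 per Mb at 200 to 300 bp past the end.

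The base composition dipped in the same place. GC content was 36.0% in the last 100 bp and 44.6% at 200 to 300 bp past the end, and the part of composition in the dip was not tested. The density went on at a similar level past the 1 kb limit of the rule. Shared peaks numbered 67.7 per Mb at 500 to 1000 bp past the end, 63.7 per Mb at 1000 to 2000 bp and 66.5 per Mb at 2000 to 3000 bp. Within 3' UTRs of at least 1 kb in 1 exon, shared peaks were spread evenly, with 33.3% of 965 in the third next to the stop codon, 34.6% in the middle and 32.1% in the third next to the end.

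**Figure D2:**
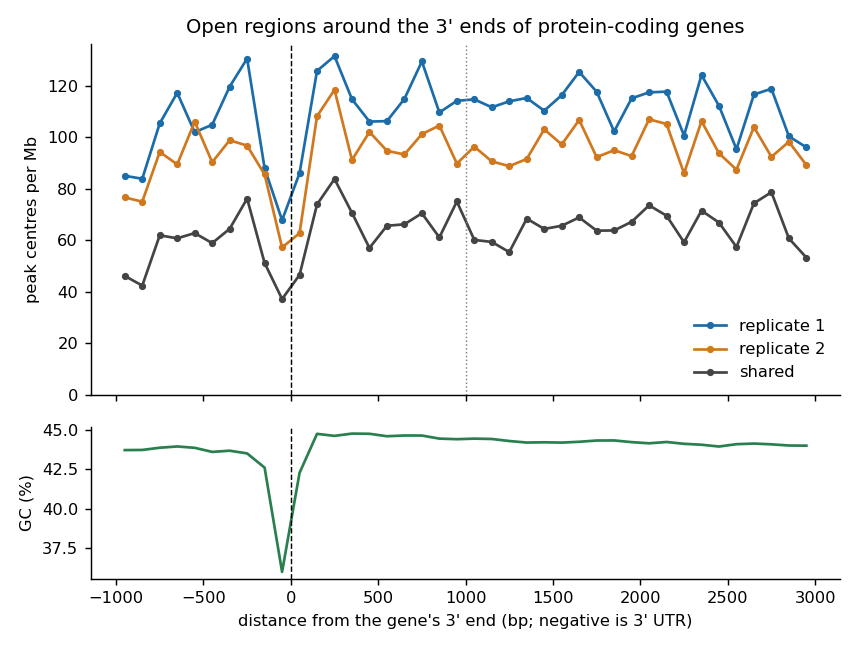
Peak centres per Mb in bins of 100 bp (upper panel) and GC content of the same sequence (lower panel) against distance from the 3' end of the gene in bp, with 1 line for each replicate and 1 for shared peaks; the dashed line is the gene end and the dotted line the 1 kb limit. All 3 lines are lowest in the last 100 bp of the gene, where shared peaks number 37.2 per Mb and GC content is 36.0%.

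At the limits of the rule the peaks resembled each other. For shared peaks, 115 lay 900 to 1000 bp past the end of their gene, just inside the limit, with a median replicate 1 signal of 61, and 109 lay 1000 to 1100 bp past an end with a median of 57. Likewise 41 shared peaks lay 1000 to 1100 bp from a TSS with a median of 56, and 40 that met every other condition lay 900 to 1000 bp from one with a median of 63.

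Gene-end peaks were of middling strength. Their signal had a median of 41 in replicate 1 and 31 in replicate 2, and other distal peaks had 39 and 29. On the scale of ranks, where 100 is the strongest peak of a list, the median gene-end peak stood at 49.0 in replicate 1 and 50.1 in replicate 2, a mean of 49.5 ± 0.806 (SD, n = 2). The median other distal peak stood at 44.9 and 44.7, a mean of 44.8 ± 0.152 (SD, n = 2), and peaks within 1 kb of a TSS at 74.1 and 72.1. The top decile of signal held 6.94% of gene-end peaks in replicate 1 and 6.43% in replicate 2, against 4.63% and 4.78% of other distal peaks. The hotspots, the regions of enrichment that the peaks sit in, were narrow, with a median width of 249 bp at gene-end peaks and 235 bp at other distal peaks in replicate 1, and 214 and 211 bp in replicate 2. Only 1.00% of gene-end peaks in replicate 1 and 0.169% in replicate 2 lay in a hotspot that also covered a coding TSS.

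How often a gene-end peak recurred followed its strength. Of gene-end peaks in replicate 1, 58.0% (56.6 to 59.4%) had a partner in replicate 2, and of those in replicate 2, 65.7% (64.3 to 67.1%) had one in replicate 1. Other distal peaks recurred at 60.02% and 63.3%, so the order of the classes differed between the replicates. In replicate 1, 10.99% of gene-end peaks in the lowest signal decile recurred, as did 99.1% of those in the highest.

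At equal strength, gene-end peaks of replicate 1 recurred less often than other distal peaks in the middle of the range. In the third decile the shares were 28.1% and 40.1%, and in the sixth they were 64.0% and 73.1%. In the sixth decile of replicate 2 the shares were 76.3% and 75.99%. The labels list instrument models for replicate 2 only, and the cause of the gap was not tested. Peaks that recurred were richer in GC in both classes. The median GC was 51.3% in recurring and 48.7% in non-recurring gene-end peaks of replicate 1, and 51.3% and 49.3% in those of replicate 2. The signals of the 2727 shared gene-end peaks ranked alike in the replicates, with a Spearman rho of 0.849, against 0.819 for other shared distal peaks. The points of this correlation share the libraries and the base composition, and it is given as a description.

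**Figure D3:**
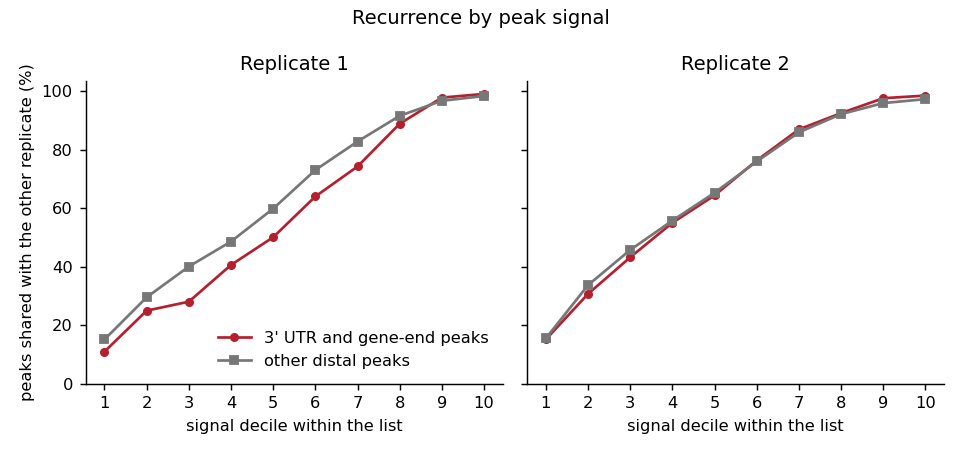
Share of peaks with a partner in the other replicate (vertical axis, %) by decile of signal within the list (horizontal axis), for 3' UTR and gene-end peaks and for other distal peaks, with replicate 1 on the left and replicate 2 on the right. Recurrence climbs from 10.99% to 99.1% for gene-end peaks of replicate 1, and the classes lie apart in its middle deciles (64.0% and 73.1% in the sixth) but not in replicate 2.

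Of 21938 protein-coding genes, 2433 had at least 1 shared gene-end peak, which is 11.1% of genes. Replicate 1 alone gave 16.1% and replicate 2 alone 15%. A 3' UTR peak was found at 6.28% of genes and a downstream peak at 5.52%. Most of these genes, 2028, had a single shared peak, and 405 (1.85% of all genes) had 2 or more. Each shared peak was assigned to the gene whose 3' UTR or end it lay at, and 5.35% fell to more than 1 gene. The gene's own TSS was also the nearest coding TSS for 65.8% of shared gene-end peaks, so for the others the promoter of a neighbour was closer.

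Genes with an open promoter more often had an open gene end. A shared gene-end peak was found at 13.7% (13.1 to 14.3%) of the 14169 genes with a shared peak within 500 bp of a TSS and at 6.37% (5.85 to 6.94%) of the 7769 others. The contrast was larger past the gene end, where genes with an open TSS had 82.6 shared peaks per Mb and the others 39.6, than in the 3' UTR, where they had 55.7 and 40.2. It was also seen among genes with a 3' UTR of 1 to 2 kb, at 13.6% and 8.57%. Olfactory receptor genes, which are used in the nose, had a shared gene-end peak at 16 of 1135 genes (1.41%). Without them, the genes with no open TSS still had fewer, at 7.23% (6.63 to 7.88%). Per Mb the difference was then found past the gene end (82.6 with an open TSS and 45.1 without) and was slight in the 3' UTR (55.7 and 53.1).

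Genes with longer 3' UTRs had more chances to hold a peak but not a higher density. A shared peak was found at 23.3% of genes with at least 4 kb of 3' UTR and at 5.91% of those with under 500 bp. Per Mb of gene-end sequence the order was not the same, with 45.9 shared peaks in the longest class, 72.3 in genes with 500 to 1000 bp and 62.1 in those with under 500 bp. Gene ends that face the end of an opposite-strand gene within 1 kb had 83.2 shared peaks per Mb, against 56.0 per Mb at the other gene ends. A peak assigned to more than 1 gene was counted for each in these densities. The count was 292 at the facing ends, where 189 shared peaks lay. By share of genes with a shared peak the contrast was small, at 12.3% (10.9 to 13.8%) and 10.97% (10.5 to 11.4%), intervals that overlap.

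Gene lists for the tissues of the limb differed widely in how many members had an open gene end. The tendon and joint list had a shared gene-end peak at 8 of 21 genes (38.1%, 20.8 to 59.1%), beside 11.1% of all genes. It had 9 genes with a peak in replicate 1 and 8 in replicate 2. The skeletal muscle list had 8 of 30 (26.7%, 14.2 to 44.4%) and the limb patterning list 11 of 45 (24.4%, 14.2 to 38.7%). All 13 lists were chosen with earlier results of these data known. The intervals of the tendon and joint, skeletal muscle and limb patterning lists lie above 11.1%, with no allowance for the 13 lists compared. Those of endothelium (5 of 21) and ribosomal proteins (5 of 27) include it, as do cartilage (3 of 27), bone (1 of 19) and epidermis (2 of 25). The other lists had peaks at 2 of 25 housekeeping genes, 2 of 25 liver genes, 2 of 25 brain neuron genes, 1 of 22 genes for 3' end processing of mRNA and 0 of 26 erythroid and macrophage genes, and their intervals include 11.1% too, the lowest reaching up to 12.9%. The lists differ in open promoters and in 3' UTR length. The median 3' UTR was 1285 bp in the limb patterning list, 952 bp in the tendon and joint list and 357 bp in the erythroid and macrophage list, where 6 of 26 genes had an open TSS. An open TSS was found at 38 of 45 limb patterning, 17 of 21 tendon and joint and 19 of 30 skeletal muscle genes. Of all genes with an open TSS, 13.7% had a shared gene-end peak, close to the lower ends of the muscle and patterning intervals. The part of open promoters and 3' UTR length in the counts was not tested.

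**Figure D4:**
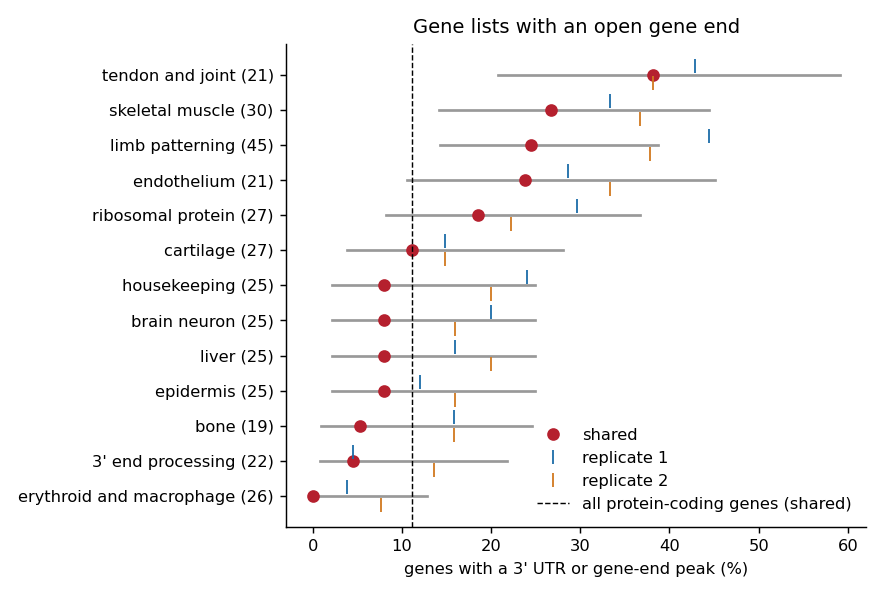
Percentage of genes with a gene-end peak (horizontal axis) for each of 13 gene lists, with the number of genes in brackets; dots are shared peaks with 95% Wilson intervals, ticks are replicate 1 (above) and replicate 2 (below), and the dashed line is the 11.1% of all protein-coding genes. The tendon and joint list is highest at 38.1% and the erythroid and macrophage list lowest at 0%.

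Among limb patterning genes, the 2 highest ranked gene-end peaks were at Tbx2 and Hoxa13, which encode transcription factors. Tbx2, a T-box repressor that acts in digit identity, had a peak 162 bp past its end where the signal was 105 in replicate 1 and 77 in replicate 2. It had another in its 3' UTR with 53 and 46. Hoxa13, which patterns the hand and foot plate, had a peak 522 bp past its end with 100 in replicate 1 and 78 in replicate 2. That peak also lay 289 bp from the start of a non-coding gene, so it cannot be assigned to the gene end alone. Hand2, which acts upstream of Sonic hedgehog at the posterior margin, had peaks 197 and 597 bp past its end. The nearer had 45 in replicate 1 and 37 in replicate 2, and the farther had 77 and 51. Both lay within 1 kb of a non-coding start.

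The other peaks of this list spanned a broad range of signal. Lmx1b, the dorsal identity factor, had 83 in replicate 1 and 48 in replicate 2, at 993 bp past its end. Pitx1, the hindlimb identity factor, had 65 and 41. Msx1, a homeobox gene expressed in undifferentiated mesenchyme, had 46 in replicate 1 and 34 in replicate 2 in its 3' UTR. Among ligands, Bmp7 had peaks 320 and 680 bp past its end, with 66 in replicate 1 and 62 in replicate 2 at the nearer, which ranked next after those of Tbx2 and Hoxa13. Wnt5a, the ligand of Ror2, had 43 and 37 in its 3' UTR. Fgf10, the outgrowth signal from mesenchyme to ectoderm, had 34 and 23, the weakest of the list by mean rank.

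Several genes central to the limb had no shared gene-end peak. These were Shh, Gli3, Ptch1, Hoxd13, Msx2, Scx, Gdf5, Runx2, Col1a1, Col2a1 and Trp63, at 0 peaks in each replicate. Twist1 had 3 peaks in replicate 1, with signals of 45 to 51, and 0 in replicate 2. Tbx5 and Tbx4, the T-box factors of the forelimb and hindlimb, had 1 peak each in replicate 1, of 28 and 49, and 0 in replicate 2. Col1a2 had 3 peaks in replicate 1 and 1 in replicate 2, none shared. Prrx1 had 0 in replicate 1 and 1 in replicate 2, and Hmga2 had none. All of these genes except Shh had a shared peak within 500 bp of a TSS.

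Muscle genes had gene-end peaks at both regulators and contractile proteins. Myod1, which commits cells to the muscle lineage, had a peak 111 bp past its end, at 72 in replicate 1 and 57 in replicate 2. The peak holds CAGCTG, the E-box that MyoD-type factors bind. These letters were in 19.2% of shared gene-end peaks and 19.9% of other shared distal peaks. They were absent from the Myog, Ckm and Tnnt3 peaks given next. Myog, which drives terminal differentiation, had 1 peak in its 3' UTR, with 54 and 29, and 1 downstream, with 50 and 34. Ckm, muscle creatine kinase, had the highest ranked of the list, with 104 in replicate 1 and 87 in replicate 2 in its 3' UTR. That peak lay 54 bp from the start of an antisense transcript. Tnnt3, fast troponin T, had 97 and 77 downstream. Acta1, skeletal actin, had 96 and 62 downstream. Ckm and Tnnt3 had no open TSS, so these gene ends were open in both replicates where the annotated promoters had no shared peak.

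In the tendon and joint list the peaks were mostly of matrix genes and transcription factors. Fmod, a small proteoglycan of tendon, had a peak with a CTCF match 653 bp past its end, with 95 in replicate 1 and 64 in replicate 2. Jun, a subunit of AP-1, had 90 and 70 in its 3' UTR and 45 and 25 downstream. The 3' UTR peak lay in a hotspot 4443 bp wide in replicate 1, and the downstream peak 99 bp from a non-coding start. Thbs4, a thrombospondin of tendon matrix, had 66 in replicate 1 and 48 in replicate 2, and Col12a1, a fibril-associated collagen, had 46 and 31. Tnc had the weakest, 33 in replicate 1 and 20 in replicate 2.

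For cartilage, Sox9, the master factor of chondrocytes, had a peak 710 bp past its end with 57 in replicate 1 and 42 in replicate 2. Bmpr1b, a BMP receptor of digit cartilage, had 71 and 47 in its 3' UTR, and Sox6, a partner of Sox9, had 46 and 29. For bone, Sp7, the osteoblast factor, had 93 and 66 at 974 bp past its end. In endothelium the highest ranked were Lyl1, with 92 in replicate 1 and 59 in replicate 2 in its 3' UTR, and Flt4, the receptor of lymphatic vessels, with 84 and 55 downstream. Both of these peaks have a CTCF match. Genes of other tissues were represented too. Pck1, a liver enzyme of glucose synthesis, had 105 in replicate 1 and 73 in replicate 2 at 277 bp past its end, with no open TSS. Of the housekeeping genes, Actb had 38 and 20 at 843 bp past its end.

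The genes with the most shared gene-end peaks included members of the SoxC family, single-exon genes with long 3' UTRs that act in progenitor cells. Sox11 had 7, all in its 3' UTR of 6957 bp, with signals of 32 to 82 in replicate 1 and 28 to 65 in replicate 2. A pair of these 7 overlap and have the same partner signal of 28. Sox4 had 6, 4 of them in the 3' UTR and 2 downstream, with 52 to 86 in replicate 1 and 40 to 73 in replicate 2. Sox12, the third member of the family, had 2, and 1 of them was among the strongest of all, at 131 in replicate 1 and 113 in replicate 2 and 1655 bp from the nearest coding TSS. Zfp36l2, an RNA-binding protein that promotes mRNA decay, had 5, with 59 to 87 in replicate 1 and 40 to 67 in replicate 2. The 3 of them in its 3' UTR lay 25, 445 and 625 bp from the start of an antisense transcript. BC004004 also had 5, and 12 genes had 4 each, among them Mrpl58, Ncbp3, Cep41, Prpf19 and Cdc6. The 2 shared peaks downstream of Cep41 overlap and have the same partner in replicate 2, of signal 35.

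Some of these counts rest on sequence with a near-identical copy elsewhere. Of the 2727 shared gene-end peaks, 85 (3.12%) had another match in the assembly of at least 90% identity over at least 80% of the peak, so reads there could have come from either copy. Mid1, which spans the border of the pseudoautosomal region, had 6 shared peaks, and all 6 had a copy at 100% identity. All 4 peaks of Cdc6 had 1 copy, at 91.2 to 98% identity, and so did 1 of the 4 at Prpf19. Counts at Mid1 and Cdc6 are therefore uncertain.

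By mean rank over both replicates, the strongest gene-end peak was 287 bp past the end of Sec14l2, a lipid-binding protein, with 132 in replicate 1 and 122 in replicate 2. It lay 1306 bp from the nearest coding TSS. The next were at Sox12, Fam120a (132 and 108), Fhl3 (129 and 112), the histone gene Hist1h1b (125 and 119), Slc4a3, Mrpl58 (132 and 106) and Rpn1 (131 and 101). Lrrc24 had 124 in replicate 1, at a peak that was assigned to 2 genes. Its partner in replicate 2 had 110 and was not itself a gene-end peak of Lrrc24. Lars2 had 127 and 105. The Lars2 peak has 2 near-identical copies. Most of the 10 lay downstream of the gene, in 6 cases, and only 1 of the 10, at Slc4a3, had a CTCF match.

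The sequence of shared gene-end peaks was richer in GC than closed gene-end sequence taken over all protein-coding genes. The median was 51.3% in shared gene-end peaks, 48.7% in other shared distal peaks and 43.3% in 300002 closed tiles of 150 bp. These tiles came from all 3' UTR and downstream sequence that the rule could accept, outside the hotspots of both replicates. As 11.1% of genes had a shared gene-end peak, the tiles also came from genes without one. The CpG content was low, with a median ratio of observed to expected CpG of 0.253 in gene-end peaks and 0.238 in other distal peaks, against 0.696 in peaks within 1 kb of a TSS. Repeats covered 9.09% of the sequence of gene-end peaks and 9.20% of that of other distal peaks.

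Of the motifs searched, CTCF was the one in which gene-end peaks differed most from other distal peaks. Either strand of the central core of the motif was searched in each 150 bp peak, and a match says only that the letters are there. It was found in 298 of 2727 shared gene-end peaks (10.9%, 9.81 to 12.2%), in 5.48% (5.34 to 5.63%) of other shared distal peaks and in 4.74% of all shared peaks. Of the closed tiles, 0.0377% had it. The shares over all peaks of a list were 7.04% and 3.75% in replicate 1, and 7.16% and 3.52% in replicate 2, with gene-end peaks higher in each.

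The difference was also seen at matched GC content, and was smaller within 20 kb of a coding TSS. Among shared peaks of 45 to 55% GC, 11.5% (9.93 to 13.3%) of gene-end peaks and 5.77% (5.57 to 5.98%) of other distal peaks had a match. Among those within 20 kb of a coding TSS the shares were 11.2% (9.97 to 12.6%) and 7.52% (7.26 to 7.79%). The share was 12.7% downstream and 9.65% in 3' UTRs. In 3' UTRs it did not stand clear of other distal peaks at each distance from a promoter. At 10 to 20 kb it was 7.79% (5.33 to 11.2%) in 3' UTR peaks and 7.76% in other distal peaks, and at 2 to 5 kb 9.07% (6.65 to 12.25%) and 8.14%.

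Gene-end peaks with a CTCF match were strong and recurred. Their median signal was 78 in replicate 1 and 49.5 in replicate 2, against 52 and 37 for shared gene-end peaks without one. Other shared distal peaks had a like contrast, at 76 and 48 with a match and 47 and 35 without. Of gene-end peaks with a match, 90.03% in replicate 1 and 99.0% in replicate 2 recurred, against 55.6% and 63.1% of those without. This contrast was not matched for signal. The median rank was 84.1 in replicate 1 and 78.8 in replicate 2 with a match, and 47.0 and 47.4 without. Of all gene-end peaks, 97.8% recurred in the ninth signal decile of replicate 1 and 92.5% in the eighth of replicate 2. Downstream, 92 of 147 matches lay on the strand of the gene, 54 on the other strand and 1 peak had both. In the 3' UTR, 67 of 151 lay on the strand of the gene and 84 on the other. The share on the strand of the gene was 62.6% (54.5 to 70.0%) downstream and 44.4% (36.7 to 52.3%) in the 3' UTR, where the interval includes an even split. Close to the end the share was 15.7% (11.5 to 21.05%) in the first 200 bp past it and 7.24% (4.09 to 12.5%) in the last 200 bp before it, intervals that overlap.

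Other motifs were read in the same way, on both strands, and a 150 bp peak could hold several. CAGCTG, an E-box bound by basic helix-loop-helix factors, was the most frequent, at 19.2% of shared gene-end peaks, 19.9% of other shared distal peaks and 6.41% of closed tiles. GGGCGG, bound by SP and KLF factors, was in 9.06% of gene-end peaks, 5.81% of other distal peaks and 1.77% of closed tiles, and in 40.03% of shared peaks within 1 kb of a TSS. GGAATG, the site of TEAD factors, was in 12.4%, 13.6% and 8.05% of the same 3 sets. TGANTCA, the AP-1 site, was in 4.80% of gene-end peaks and 6.65% of other distal peaks, with 4.31% of closed tiles. TGTGGT, read by RUNX factors, was in 12.7%, 12.5% and 11.1% of gene-end peaks, other distal peaks and closed tiles.

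A further 3 motifs were rarer in gene-end peaks than in closed gene-end sequence. ACAAAG, bound by SOX factors, was in 10.5% of shared gene-end peaks, 11.7% of other distal peaks and 13.8% of closed tiles. TAATTA, the homeobox core, was in 1.76%, 2.86% and 4.92%. AATAAA, the polyadenylation signal, was in 6.197% of shared gene-end peaks on the strand of the gene and in 5.57% on the other strand, against 12.6% of closed tiles on each strand. These 3 motifs are rich in A and T, and closed tiles were lower in GC, at 43.3%. The part of base composition was not tested.

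A match to the long motif of REST, the repressor of neuronal genes, was found in 5 of 2727 shared gene-end peaks (0.183%, 0.0783 to 0.429%) and 0.0980% of other shared distal peaks. Among these 5 was a peak in the 3' UTR of St6galnac5, with 88 in replicate 1 and 62 in replicate 2. Another lay in the 3' UTR of Sec14l3, with 83 and 51. Their matches are shown in capitals.
St6galnac5, chr3:152821378-152821407, minus strand: ggcgtccTTCAGCACCATGGACAGatccca
Sec14l3, chr11:4076821-4076850, plus strand: gcagatTTCAGCACCCCGGACAGcgccgcc

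**Figure D5:**
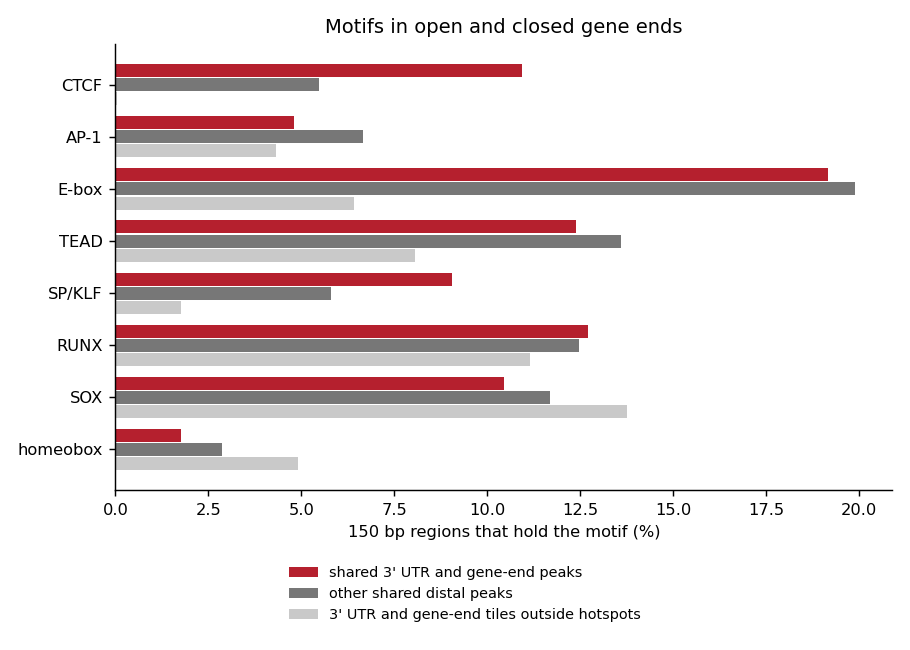
Percentage of 150 bp regions that hold each motif on either strand (horizontal axis), for shared 3' UTR and gene-end peaks, other shared distal peaks, and 3' UTR and gene-end tiles outside hotspots. CTCF differs most between the classes of peak, at 10.9% and 5.48%, while the E-box is at 19.2% and 19.9%.

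Some gene-end peaks may belong to the starts of non-coding genes, which the rule did not exclude. Of shared gene-end peaks, 139 (5.10%, 4.33 to 5.99%) lay within 1 kb of such a start, and 4.45% (4.32 to 4.58%) of other shared distal peaks did. Antisense transcripts were the most common kind, at 52 of the 139, followed by lincRNAs and TEC genes (transcripts to be experimentally checked) at 17 each. These peaks had a median rank of 73.7 in replicate 1, against 67.9 for the other shared gene-end peaks. Peaks could also overlap within a list, as 7.94% of gene-end peaks did in replicate 1 and 6.67% in replicate 2, so a few regions count more than once.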

How the data were processed

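DNase-seq peaks and hotspots of 2 limb libraries were used. The authors deposited, for each library separately, peaks with a signal, a whole number whose scaling is not given, and hotspots with a −log10 q-value, with the mm10 build per the labels. Read depth, aligner, peak caller and filters are unknown here, being not given in the sources used here. Peaks on chromosomes 1 to 19, X and Y were classed by their centre against GENCODE M21, with 3' UTRs of protein-coding transcripts. Shared peaks are placed at replicate 1 coordinates. Ranks are percentiles of signal within a list. Motifs were searched in the RefSeq GRCm38.p6 sequence, and copies with BLAST 2.17.0. Python 3.11.15, numpy 2.4.6, pandas 2.3.3, scipy 1.17.1 and matplotlib 3.10.9 were used, and the classing, sharing and motif search were tested on simulated data. No test was made, since the series holds 1 group.

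The regions and the 13 gene lists were chosen with earlier results of these data known. Named genes were the 10 with the most shared gene-end peaks (ties broken by the highest mean rank of their peaks), those of the 10 strongest peaks, up to 3 of each list by number and rank of peaks, and a set of limb and control genes. Other list members named were picked after their values were seen. Alternatives changed the overlap, signal limit, windows, annotation, replicate and coordinates, and their effect is given in the closing section. The values of 1 gene are not reported here.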

Additional observations from a re-analysis of the deposited data

How the results depend on the processing

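Of 104 values recomputed under other settings, 76 kept within the spread between the replicates or, for counts, within 1.5 times and, for Spearman's rho, within its 95% Fisher interval, and 28 moved beyond it. A direction was defined only for the density ratio to other distal sequence and the ratio of downstream to 3' UTR, and neither turned. For recurrence and median rank, leaving out a replicate could not move the value beyond the spread, as the main value is the mean of both replicates. With only the 50000 peaks of highest signal in each list, 813 gene-end peaks were shared at 823 genes, the density ratio to other distal sequence was 1.97, the ratio of downstream to 3' UTR 1.59, the recurrence 78.05%, the median rank 85.5, the CTCF share 20.5% and Spearman's rho 0.687. The share of shared peaks at gene ends was 1.68% with a 500 bp downstream window, 2.99% with 2 kb, 1.86% when over 2 kb from a TSS and 2.03% without peaks near non-coding starts. The CTCF share was 10.3% with an overlap of 1 bp, 10.6% with a 500 bp and 11.1% with a 2 kb window, 10.7% over 2 kb from a TSS, 11.2% with basic transcripts, 11.1% without peaks near non-coding starts and 10.8% at replicate 2 coordinates. Its replicates differed by an SD of only 0.0796 percentage points. Settings chosen after seeing the data gave a CTCF share of 15.6% with a looser pattern, and a density ratio of 1.15 and a CTCF share of 11.2% within 20 kb of a coding TSS. Merging overlapping peaks left 2689 shared gene-end peaks, and dropping those with a near-identical copy left 2642.

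With each replicate left out in turn, the number of gene-end peaks was 4150 to 4699, their share of peaks 2.11% to 2.25%, the ratio of downstream to 3' UTR 1.14 to 1.25 and the CTCF share 7.04% to 7.16%. These are values of a single list, with no requirement of sharing. Fewer peaks make up the 50000, and the causes of the other changes were not tested. No paired analysis was possible because the series holds 1 group. Read depth, the scale of the signal and the independence of the replicates are unknown, and a motif match or a nearby gene shows neither binding nor a target.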
